A study of Mus musculus with 6 samples.

Results

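Granzymes and perforin are the killing proteins of cytotoxic lymphocytes, and their transcripts were followed here through cells of mouse tumors that had been enriched for leukocytes. The 9 genes were Gzma, Gzmb, Gzmc, Gzmd, Gzme, Gzmf, Gzmg, Gzmk and Prf1. They were chosen by name, and all 9 were present among the 31053 genes of the deposited single-cell count table. CT26, a mouse colon carcinoma cell line, was grown as tumors in wild-type female Balb/c mice of 5 to 6 weeks of age, and tumors were dissected 5 days after treatment. CD45+ cells, that is leukocytes, were enriched with beads and sequenced with the 10x Genomics Chromium 3′ v3 chemistry. Of the 33961 cells in the table, 15687 nevertheless carried the label Stroma. The sample labels list 6 samples, 2 treated with vehicle, 2 with a low dose and 2 with a high dose of a PD-1 GITR-L bispecific antibody, which joins an antibody to the checkpoint receptor PD-1 with the ligand of the costimulatory receptor GITR. The protocol text gives 10 mg/kg as the low dose and 30 mg/kg as the high dose, whereas the low-dose samples themselves carry 30 mg/kg. The study's own text describes the comparator as an isotype control and gives other doses than the labels. Cells in the table belong to 4 libraries named M1, M2, M5 and M6, which match no sample label. No library was therefore given a treatment, and no treatment comparison was made. Labels were compared within each library and by the ranges over libraries, with no test of a difference between labels.

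Cytotoxic T cells and natural killer (NK) cells store granzymes, a family of serine proteases, together with the pore-forming protein perforin in secretory granules. On contact with a target cell the granules are released, perforin opens the target's membrane, and the granzymes enter and cleave proteins inside. Granzyme B cuts after aspartate and activates caspases, whereas granzymes A and K cut after basic residues. The Gzmc to Gzmg genes are rodent granzymes that lie beside Gzmb, and they are known from strongly activated killer cells and from NK cells of the pregnant uterus.

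The 9 genes lie at 3 places in the mouse genome (GRCm38, gene models of GENCODE M21). Gzmb at chr14:56258838-56262260, Gzmc at chr14:56231441-56234656, Gzmf at chr14:56205263-56211417, Gzmg at chr14:56156582-56159579, Gzmd at chr14:56129556-56132608 and Gzme at chr14:56117626-56120625 follow each other on the minus strand and have 5 exons each. Gzma at chr13:113093825-113100981 and Gzmk at chr13:113171608-113225908 are neighbours on the minus strand with 6 exons each. Prf1, at chr10:61297833-61304680 on the plus strand, has 3 exons. The Gzmd and Gzme transcripts were identical over 90.04% of their alignment with gaps counted. Among Gzmd, Gzme, Gzmf and Gzmg the identity of the pairs ran from 83.1% to 90.04%, and Gzmc matched these 4 over 68.8% to 70.6%. In the last 500 bases of the transcript, where 3′ reads fall, 6 of the 410 stretches of 91 bases in Gzmd also occurred in Gzme (1.46%). No such stretch of Gzma, Gzmb, Gzmc, Gzmf, Gzmg, Gzmk or Prf1 occurred in a transcript of another granzyme gene or of Prf1, the only transcripts searched. Reads of Gzmd and Gzme could therefore not be told apart at a few positions, and their values are uncertain to that extent.

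The sequences just before the starts of Gzmb and the 5 genes beside it are shown because the 5 resemble each other, Gzmc the least, and their transcripts were found in the same cells. Each line gives the 150 bases before the RefSeq start on the GRCm38.p6 assembly, 5′ to 3′ on the minus strand, which is the coding strand of these genes. Capitals mark TGTGGT, the core site of Runx factors, TCACAC of T-box factors, TGANTCA of AP-1 and TGACGTCA of CREB and ATF factors, each searched on both strands.
Gzmb: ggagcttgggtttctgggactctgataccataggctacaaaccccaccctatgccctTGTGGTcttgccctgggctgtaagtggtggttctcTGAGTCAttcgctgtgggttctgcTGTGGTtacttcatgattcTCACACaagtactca
Gzmc: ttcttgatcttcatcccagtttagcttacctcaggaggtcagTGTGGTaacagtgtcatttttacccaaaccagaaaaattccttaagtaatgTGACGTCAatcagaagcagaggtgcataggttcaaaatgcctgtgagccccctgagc
Gzmd: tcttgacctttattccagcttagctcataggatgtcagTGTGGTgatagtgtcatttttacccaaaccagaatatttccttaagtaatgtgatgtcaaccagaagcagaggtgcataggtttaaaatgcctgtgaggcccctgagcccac
Gzme: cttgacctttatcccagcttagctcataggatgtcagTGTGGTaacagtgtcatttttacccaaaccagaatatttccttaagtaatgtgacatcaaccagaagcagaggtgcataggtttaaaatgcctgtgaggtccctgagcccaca
Gzmf: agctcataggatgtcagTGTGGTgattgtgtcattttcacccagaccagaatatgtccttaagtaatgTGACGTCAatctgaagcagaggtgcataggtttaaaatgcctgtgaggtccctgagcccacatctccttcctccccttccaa
Gzmg: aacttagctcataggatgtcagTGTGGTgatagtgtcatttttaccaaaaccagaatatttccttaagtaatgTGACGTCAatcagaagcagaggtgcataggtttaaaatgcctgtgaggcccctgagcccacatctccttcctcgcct
These stretches are chr14:56262335-56262484 (Gzmb), chr14:56234658-56234807 (Gzmc), chr14:56132594-56132743 (Gzmd), chr14:56120626-56120775 (Gzme), chr14:56211408-56211557 (Gzmf) and chr14:56159580-56159729 (Gzmg). Over the 250 bases before the start, Gzmd and Gzme were identical at 94.8% of aligned positions with gaps counted, and the pairs among the 5 genes ran from 70.2% to 94.8%. The most alike pair of any other kind, Gzme and Gzmk, reached 48.9%. In those 250 bases TGTGGT occurred 2 times in Gzmb and 2 times in each of the 5 genes, 1 time in Gzma and 1 time in Prf1, and was not found in Gzmk. In all 32851 RefSeq mouse promoters of the same length, 14.1% held it and 1.27% held 2 or more copies. TGACGTCA was found in Gzmc, Gzmf and Gzmg but not in Gzmd or Gzme, and 1.55% of all promoters held it. This motif was added to the search after the sequences had been seen. TCACAC was found 1 time in Gzmb and 2 times in Gzmk (12.3% of all promoters held it), and TGANTCA 1 time in Gzmb only among the 9 genes (6.75% of all promoters). A match describes letters, not binding.

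The table held 33961 cells in 12 labels, with 7160 to 10294 cells and 158337797 to 315577167 UMIs in a library. A UMI marks 1 captured transcript molecule. Levels below are UMIs of a gene per 1000000 UMIs (CPM), taken after adding up all cells of a label, and they are not divided by transcript length, so that labels are compared within a gene and genes are not ranked. A share is the percentage of cells with at least 1 UMI after each cell was thinned to 2000 UMIs, which left out 696 shallower cells. Intervals are exact (Clopper-Pearson) 95% binomial intervals, and they cover counting error only. The labels came from the same transcripts that are compared here, which makes differences between labels a description. In all, 111 barcodes occurred in more than 1 library (222 cells).

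Markers matched the labels only in part. Cells labelled NK cells (4398 cells, median 5397 UMIs) held Ncr1 at 450 CPM and Eomes at 301 CPM. The NK receptor gene Klra8 was at no more than 0.607 CPM in every label, so no label was judged by it. Cells labelled ILC (4628 cells, median 9774 UMIs) had nearly as much of the NK receptor gene Ncr1, 422 CPM, together with Eomes at 151.5 CPM and the T cell receptor component Cd3g at 314 CPM. The T cell EFF label (3633 cells, median 10050 UMIs) held Cd8a at 597 CPM against 17.99 CPM of Cd4, and the T cell MEM label (1179 cells, median 6280 UMIs) held 424 and 68.6 CPM. Cells labelled NKT (781 cells, median 4287 UMIs) carried markers of regulatory T cells, with Foxp3 at 196 CPM against 18.8 CPM in T cell EFF cells and Ikzf2 at 1224 against 307 CPM. B cells (124 cells, median 2811 UMIs) and Stroma (15687 cells, median 40690 UMIs, with Col1a2 at 681 CPM) should lack granzymes and served as the background.

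NK cells and ILC held most of the granule transcripts. The 9 genes made up 3.31% of all UMIs in NK cells and 2.39% in ILC, against 0.622% in T cell EFF cells, 0.465% in T cell MEM cells, 0.215% in NKT cells and 0.0109% in Stroma. Of all Gzma UMIs in the table, 48.0% were in NK cells, 41.9% in ILC and 2.87% in T cell EFF cells. Gzmk had another distribution, with 41.7% of its UMIs in T cell EFF cells, 12.3% in T cell MEM cells, 19.1% in NK cells and 18.5% in ILC. It was also scarce, with 5396 UMIs in all cells against 1248159 for Gzma.

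**Figure D1:**
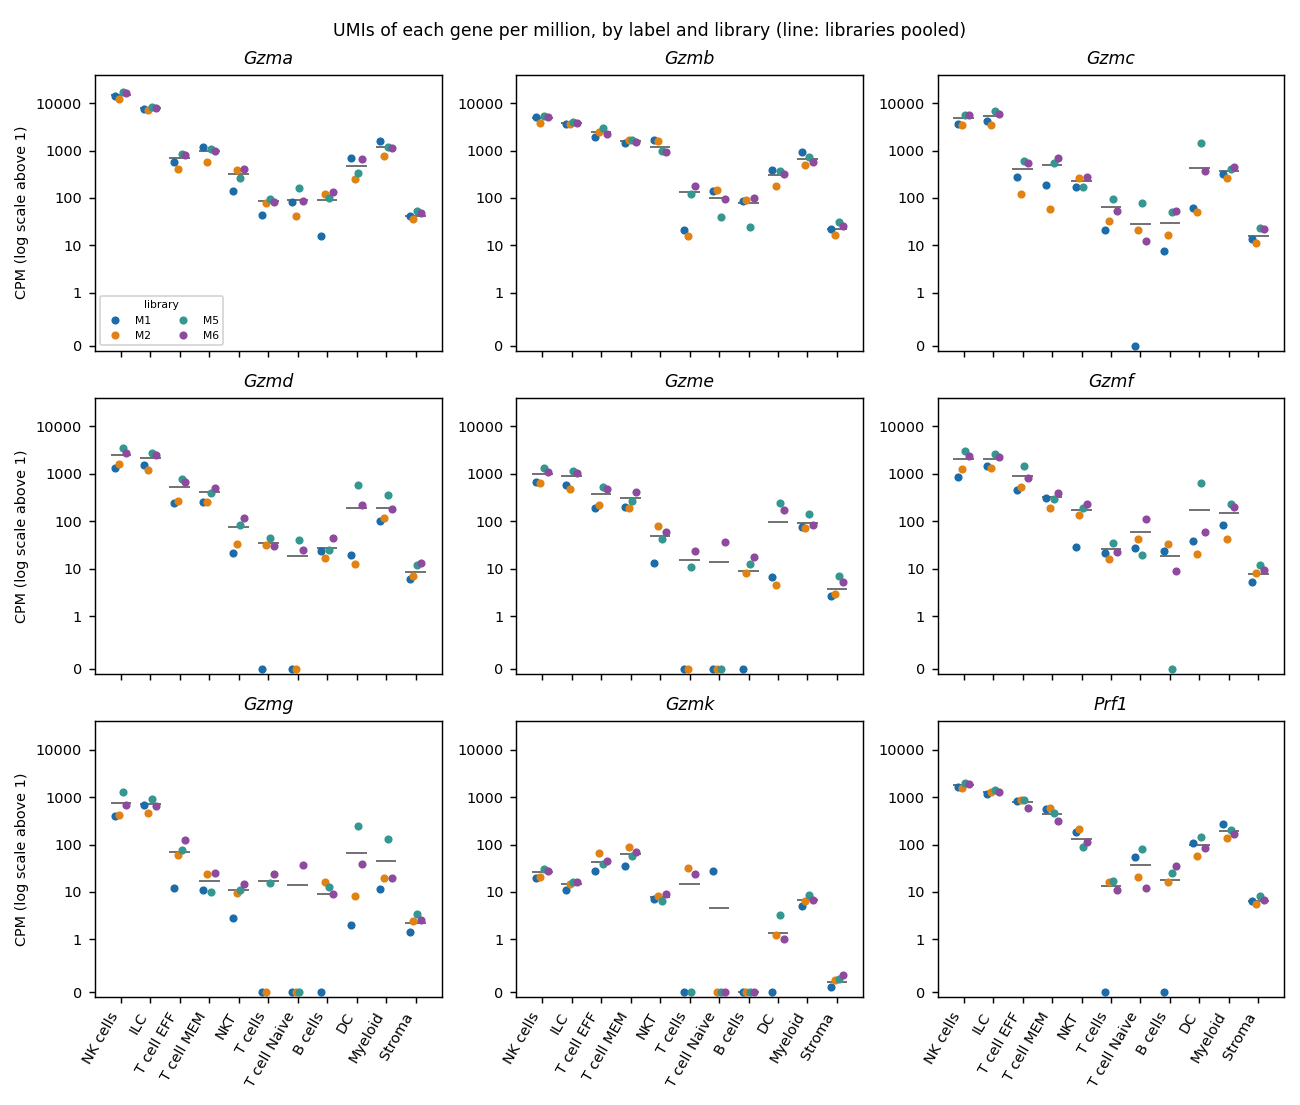
Each panel plots the UMIs of a gene per 1000000 UMIs (CPM) on the vertical axis (log scale above 1 CPM, linear below) for 11 of the 12 labels on the horizontal axis, leaving out the 37 Stem cells. Each point is a library and each line is the value with the libraries pooled. Gzma in NK cells lies between 12030 and 17180 CPM and in T cell EFF cells between 413 and 835 CPM, whereas Gzmk has its highest pooled value in T cell MEM cells.

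Prf1, which encodes perforin, was at 1623, 1585, 1963 and 1892 CPM in NK cells of libraries M1, M2, M5 and M6. ILC held 1165 to 1391 CPM, T cell EFF cells 817, 862, 871 and 577 CPM, T cell MEM cells 565, 595, 468 and 307 CPM and NKT cells 187, 211, 87.1 and 112 CPM. NK cells, ILC and T cell EFF cells thus followed in this order without overlap of their libraries, and T cell EFF and T cell MEM cells overlapped. A Prf1 UMI was present in 85.4% of NK cells, 58.4% of T cell EFF cells and 12.1% of NKT cells, against 4.46% of B cells (5 of 112) and 1.15% of Stroma cells.

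Gzmb was well above background in the NK cells, ILC, T cell EFF, T cell MEM and NKT labels, and near the B cell level of 79.0 CPM in the labels T cells (133 CPM) and T cell Naive (101 CPM). In NK cells it was at 5149, 3797, 5391 and 5178 CPM in libraries M1, M2, M5 and M6, and in T cell EFF cells at 1950, 2438, 2931 and 2200 CPM. Library M2 was the lowest in NK cells and lay within the range of the 4 libraries in T cell EFF cells. ILC (3585 to 3907 CPM) did not overlap T cell EFF cells. They overlapped NK cells, although ILC were lower than NK cells within each of the 4 libraries. T cell MEM cells (1445 to 1690 CPM) overlapped NKT cells (940 to 1655 CPM). Gzmb was detected in 75.5% of T cell EFF cells (95% interval 74.0% to 76.9%), 90.04% of NK cells and 47.4% of NKT cells, against 16.1% of B cells and 3.93% of Stroma cells. Without thinning, the share was 89.3% in T cell EFF cells.

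Gzma, the neighbour of Gzmk, had the highest ratio of its NK cell level to its T cell EFF level among the 9 genes. It was at 13810, 12030, 17180 and 16090 CPM in NK cells and at 7175 to 8135 CPM in ILC, with no overlap between them. T cell EFF cells held 569, 413, 835 and 811 CPM and T cell MEM cells 1198, 568, 1071 and 969 CPM, so that both overlapped each other and the Myeloid label (771 to 1594 CPM). The 1188 Myeloid cells with a UMI of a CD3 chain, Ncr1 or Klrb1c held Gzma at 1612 CPM. In the 1492 Myeloid cells with none of those it was at 163 CPM. NKT cells had 141 to 418 CPM. A Gzma UMI was found in 97.9% of NK cells, 76.9% of ILC and 21.7% of T cell EFF cells. The share in Myeloid cells was 27.6% and in B cells 12.5% (7.01% to 20.1%), and the T cell EFF share was below that of Myeloid cells. The Gzma level was nevertheless 680 CPM in T cell EFF cells with the libraries pooled, against 90.3 CPM in B cells (libraries from 15.6 to 133, with no overlap) and 42.1 CPM in Stroma, so no background level is read from its share. For every Gzmb UMI there were 3.06 Gzma UMIs in NK cells, 2.05 in ILC and 0.279 in T cell EFF cells, whereas Stroma (1.89), Myeloid cells (1.76) and all cells together (1.94) had like ratios.

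Gzmk, a trypsin-like granzyme known from memory-like CD8 T cells, was the only gene of the 9 whose highest label was a T cell label. It was at 34.9, 89.7, 58.5 and 70.6 CPM in T cell MEM cells, 27.6, 65.0, 38.1 and 44.97 CPM in T cell EFF cells and 20.1, 20.9, 31.1 and 28.2 CPM in NK cells. Each of these labels overlapped the next in its library values, although T cell MEM was above T cell EFF within each of the 4 libraries. At 2000 UMIs per cell Gzmk was detected in 10.2% of T cell MEM cells, 7.98% of T cell EFF cells, 4.67% of NK cells and 1.40% of NKT cells. The background was low: 0 of 112 B cells held a UMI, where 3 counts would be 2.68% and the exact interval reaches 3.24%, and 0.0448% of Stroma cells did. Without thinning, 25.9% of T cell EFF cells held Gzmk, so the share depends strongly on depth.

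**Figure D2:**
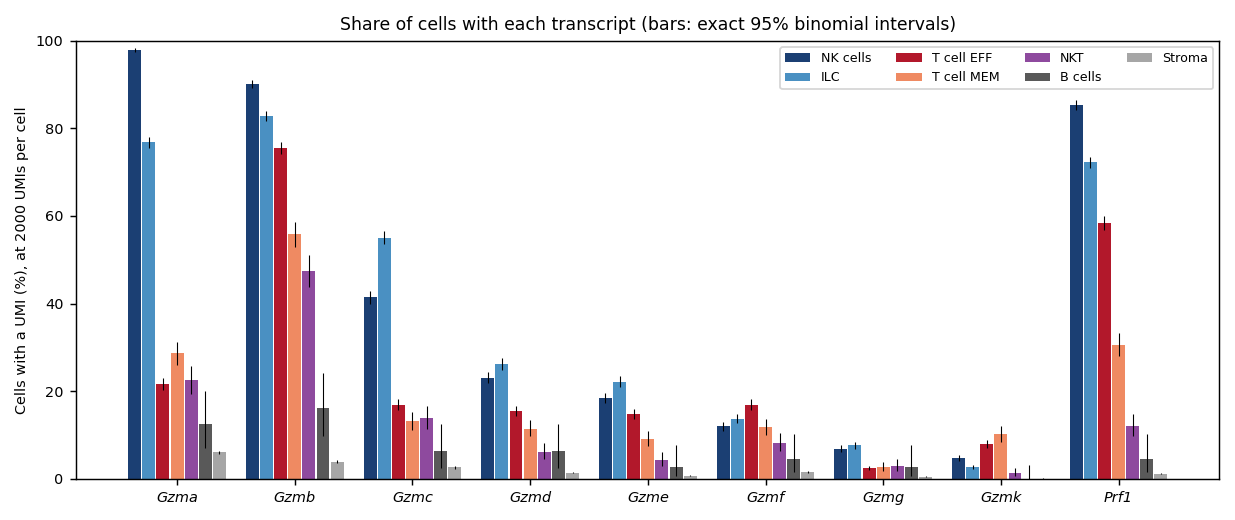
Bars give the percentage of cells with at least 1 UMI of each gene after thinning every cell to 2000 UMIs, for 7 labels with the libraries pooled, and thin lines are exact 95% binomial intervals. Gzma, Gzmb and Prf1 stand well above the B cells and Stroma in NK cells and ILC, whereas for Gzma the T cell shares (21.7% and 28.6%) come near that of B cells (12.5%).

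The 5 genes beside Gzmb were highest in NK cells and ILC, with wide differences between libraries. Gzmc was at 3602, 3394, 5715 and 5670 CPM in NK cells of M1, M2, M5 and M6, at 4099, 3523, 6953 and 5887 CPM in ILC and at 281, 124, 599 and 557 CPM in T cell EFF cells. Gzmd was at 1337, 1607, 3528 and 2745 CPM in NK cells and at 238, 270, 783 and 659 CPM in T cell EFF cells. In both labels M5 and M6 lay above M1 and M2 for both genes. Gzme showed the same order, with 660, 629, 1352 and 1105 CPM in NK cells and 191, 221, 538 and 477 CPM in T cell EFF cells. Gzmf was at 867, 1281, 3091 and 2333 CPM in NK cells and at 462, 534, 1451 and 807 CPM in T cell EFF cells. Gzmg was at 402, 428, 1300 and 674 CPM in NK cells and 12.1, 60.4, 76.0 and 122 CPM in T cell EFF cells. For all 5 genes and both labels M5 and M6 were thus the highest libraries. These levels sum the UMIs of all cells, and with the mean of each cell's CPM in their place the NK cell level went from 2483 to 1401 CPM for Gzmd, from 998 to 576.5 CPM for Gzme, from 2069 to 1227 CPM for Gzmf and from 769 to 351 CPM for Gzmg. NK cells and ILC overlapped for all 5 genes, and T cell EFF and T cell MEM cells overlapped for Gzmc, Gzmd, Gzme and Gzmg but not for Gzmf, where T cell MEM cells had 194 to 400.5 CPM.

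In T cell EFF cells Gzmc was detected in 16.95%, Gzmd in 15.4%, Gzme in 14.7%, Gzmf in 16.8% and Gzmg in 2.43% of cells at 2000 UMIs, and in NK cells in 41.5%, 23.0%, 18.4%, 11.97% and 6.88%. The B cell background was 6.25%, 6.25%, 2.68%, 4.46% and 2.68%, so that the share of T cell EFF cells with Gzmg lay within the B cell interval (0.556% to 7.63%, 3 of 112 cells). The pooled Gzmg level was nevertheless 68.3 CPM in T cell EFF cells against 9.03 CPM in B cells and 2.18 CPM in Stroma. The libraries of T cell EFF cells (12.1 to 122 CPM) and B cells (0 to 16.5 CPM) overlapped. A single T cell EFF cell held up to 92 of 2000 UMIs, so no background level is read from the share of Gzmg. Gzmf had a lower share but a higher level in NK cells than in T cell EFF cells, so no order is read from its shares. At least 1 of the 5 genes was detected in 50.3% of NK cells, 61.9% of ILC, 37.0% of T cell EFF cells, 31.4% of T cell MEM cells and 28.8% of NKT cells. The background was 21.4% of B cells (24 of 112, 14.2% to 30.2%) and 6.19% of Stroma cells, so that the NKT share lies within the interval of the B cells. In NK cells the share was 38.0%, 42.2%, 58.4% and 57.7% in M1, M2, M5 and M6. T cell EFF cells had 27.9%, 26.2%, 49.4% and 40.7%. Libraries M5 and M6 were above M1 and M2 here, and they were also above them in ILC, T cell MEM, NKT, Myeloid cells (32.2% and 26.2% against 19.3% and 18.6%) and Stroma (11.4% and 8.27% against 4.85% and 4.90%). Median depth before thinning was also higher in M5 and M6 than in M1 and M2 in NK cells (6052 and 5612 against 4214 and 5569 UMIs), ILC (10600 and 10650 against 9148 and 8543), T cell MEM cells (7579 and 6602 against 5496 and 4688), NKT cells (4407 and 4830 against 3588 and 3734) and Stroma (42320 and 43990 against 38910 and 40220). It did not have this order in T cell EFF cells (10420, 9005, 10780 and 9636 UMIs in M1, M2, M5 and M6) or in Myeloid cells (8258, 6882, 7455 and 8938 UMIs). Shares were taken at 2000 UMIs in every cell, and the part of depth and of free RNA in them was not tested.

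**Figure D3:**
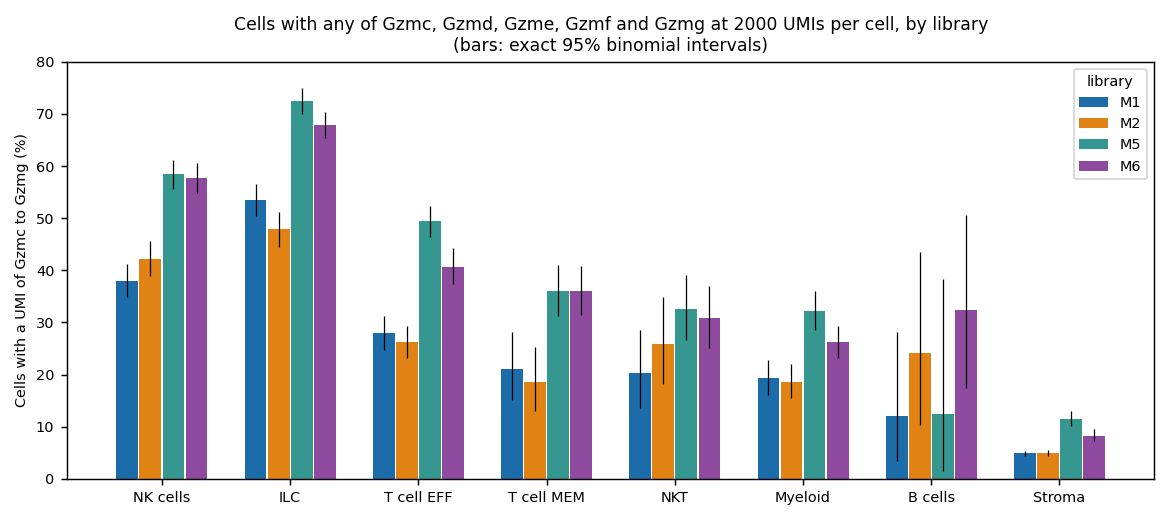
Bars give the percentage of cells with at least 1 UMI of Gzmc, Gzmd, Gzme, Gzmf or Gzmg at 2000 UMIs per cell, by label and library, with exact 95% binomial intervals. Libraries M5 and M6 exceed M1 and M2 in NK cells (58.4% and 57.7% against 38.0% and 42.2%) and also in Stroma.

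Transcripts of the 5 genes occurred together in the same cells. In T cell EFF cells, Gzme was detected in 66.7% of the 547 cells with Gzmd and in 5.20% of the 2998 cells without it. The share with Gzmd was 55.3%, 61.1%, 72.3% and 66.4% in M1, M2, M5 and M6, against 5.38%, 2.56%, 8.10% and 4.47% without. NK cells gave nearly the same values, 65.6% with Gzmd and 4.25% without. The part of reads that cannot be told apart between these near-identical transcripts was not tested, whereas Gzmc shares no stretch of read length with Gzmd. Gzmd was found in 34.1% of T cell EFF cells with Gzmc and 11.6% of those without, and in 46.2% and 6.60% of NK cells. Conversely, 83.2% of NK cells with Gzmd held Gzmc against 28.98% without, and in T cell EFF cells these shares were 37.5% and 13.2%. Gzmg, detected in the fewest T cells of the 5, was mostly accompanied in NK cells, where Gzmd was in 83.5% of cells with Gzmg and 18.6% of those without.

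At least 2 of the 5 transcripts were detected in 24.3% of NK cells, 30.8% of ILC, 16.9% of T cell EFF cells, 10.8% of T cell MEM cells and 5.61% of NKT cells, against 0.893% of B cells (1 of 112) and 0.428% of Stroma cells. This measure separated these labels from the background more clearly than detection of any of the 5. By library the share was 14.9%, 21.0%, 28.8% and 29.5% in NK cells and 10.2%, 9.39%, 26.4% and 18.3% in T cell EFF cells, with M5 and M6 again above M1 and M2. All 5 transcripts were detected in 3.30% of NK cells, 3.54% of ILC and 0.762% of T cell EFF cells.

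The number of UMIs in a cell varied widely for these genes. After thinning, a single NK cell held up to 348 of 2000 UMIs of Gzmf, 283 of Gzmc and 201 of Gzmd, and a T cell EFF cell up to 173 of Gzmf. The variance of the UMIs over cells was 109.5 times their mean for Gzmf in NK cells, 48.4 times for Gzmc and 45.4 times for Gzmd, against 18.99 times for Gzma and 3.96 times for Prf1. In T cell EFF cells it was 42.98 times the mean for Gzmf, 11.2 times for Gzmb and 3.71 times for Prf1. Gzma and Prf1, found in most NK cells, had 26.4% and 34.0% of their UMIs in the 10% of NK cells with the most.

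**Figure D4:**
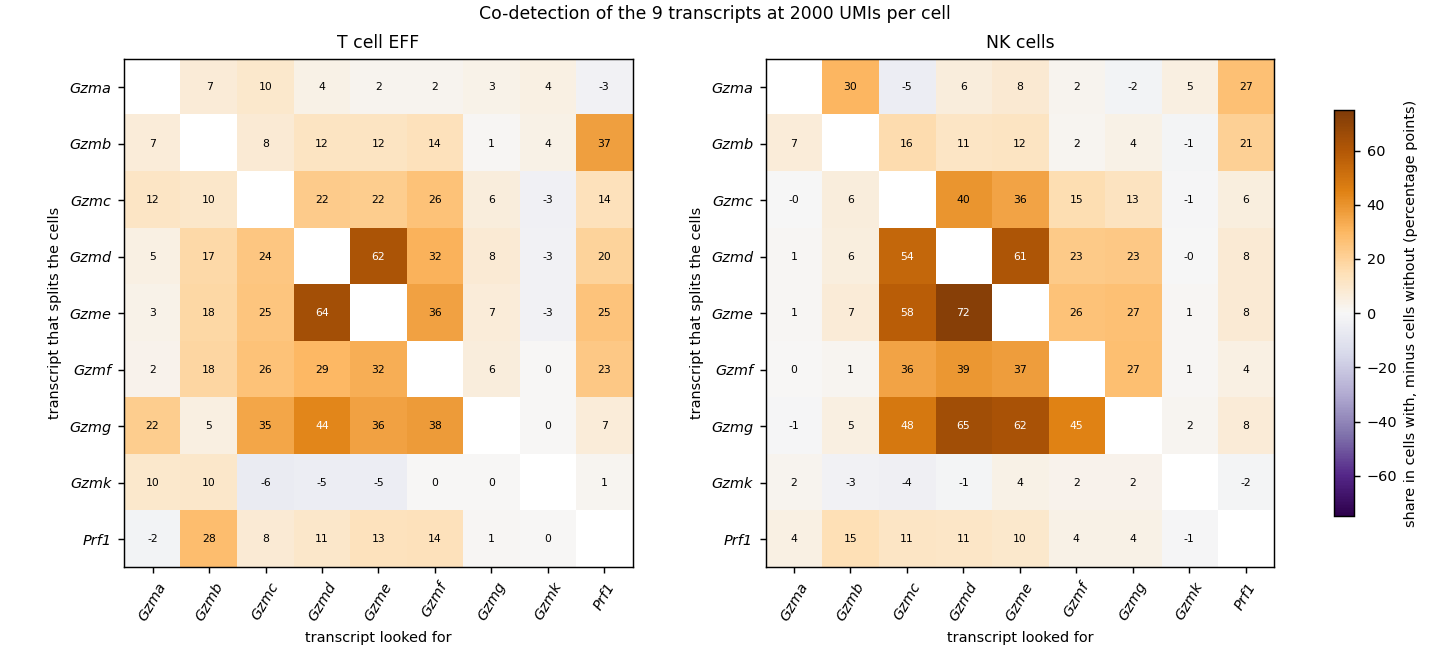
Each square gives the share of cells with the transcript named below it among cells with the transcript named at the left, minus the share among cells without it, in percentage points at 2000 UMIs per cell, for T cell EFF cells and NK cells. The squares among Gzmc, Gzmd, Gzme, Gzmf and Gzmg hold most of the high values, such as Gzme beside Gzmd, and the Gzmk row and column hold only low values.

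Prf1 was detected more often beside Gzmb in T cell EFF cells. It was in 67.4% of the cells with Gzmb and in 30.7% of those without, and by library the shares were 73.3%, 70.6%, 69.1% and 53.4% against 43.5%, 40%, 25% and 22.1%. In NK cells they were 87.4% and 66.9%. Most T cells with Gzmk held Gzmb as well, which was in 84.8% of T cell EFF cells with Gzmk and 74.7% of those without. Gzma beside Gzmk differed by library: in M6 it was in 58.8% of cells with Gzmk and 23.5% of those without, and in M1 in 16.7% and 16.8%.

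T cell EFF and T cell MEM cells were then sorted by Gzmb and Gzmk. In T cell EFF cells 68.7% held Gzmb only, 6.77% both, 1.21% (43 cells) Gzmk only and 23.3% neither. In T cell MEM cells these were 49.3%, 6.47%, 3.67% (42 cells) and 40.5%. Of the 22 genes of T cell state that were compared, 4 were detected more often in the 3000 Gzmb-only cells than in the 85 Gzmk-only cells in all 4 libraries, 2 less often and 16 in no common direction. Of all 10076 genes found in at least 1% of either class, 15.4% were detected more often in all 4 libraries and 3.15% less often, so that the list's share of genes detected more often (18.2%) was near that of all genes. The 4 were the inhibitory receptors Havcr2 (22.1% against 5.88%) and Lag3 (54.2% against 22.4%), the tissue-homing receptor Cxcr6 (61.4% against 27.1%) and the killer receptor chain Klrd1 (72.6% against 54.1%). Tcf7, a transcription factor of memory and progenitor T cells, was found in 2.43% against 22.4%, and the chemokine Ccl5 in 53.6% against 67.1%. Prf1 was in 62.9% of Gzmb-only and 15.3% of Gzmk-only cells and was higher in the former in every library. The 2 classes differed in their makeup: 42 of the 85 Gzmk-only cells carried the T cell MEM label, against 564 of the 3000 Gzmb-only cells, and 4, 12, 31 and 38 Gzmk-only cells came from M1, M2, M5 and M6. A gene missing from the few Gzmk-only cells of M1 or M2 counted there as more often in Gzmb-only cells if any of those held it. A common direction over the 4 libraries thus depended on class size. The Tcf7 level was 67.6 CPM in T cell MEM and 14.8 CPM in T cell EFF cells, and the part of the labels in these differences was not tested.

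The same 22 genes were compared between the 1672 T cell EFF and T cell MEM cells with any of Gzmc to Gzmg and the 3016 with none. The shares were higher with these transcripts in all 4 libraries for 5 genes, lower for 7 and mixed for 10. This was 22.7% and 31.8% of the list, whereas 8.39% of 9197 genes were higher and 10.5% lower in all 4 libraries. The list was chosen with earlier results of these data known. The 9197 genes, found in at least 1% of either class, were not matched to it by share of cells. No enrichment of the list is read from these shares. The inhibitory receptors Pdcd1 (62.0% against 57.3%), Havcr2 (24.0% against 14.7%) and Lag3 (53.1% against 45.7%), the costimulatory receptor Tnfrsf9 (76.1% against 69.2%) and Cxcr6 (58.1% against 52.2%) were the 5 higher ones. Among the 7 lower ones were the transcription factors Tox (13.8% against 17.7%) and Tcf7 (4.19% against 6.43%), the receptor Slamf6 (4.96% against 7.63%) and the chemokine receptors Ccr7 (25.1% against 29.7%) and Cxcr3 (7.72% against 9.55%). Among the members, Prf1 was in 62.0% of the cells with any of the 5 and 45.9% of those with none. Cd8a differed as well, 65.7% against 58.9%, and these cells are drawn in part from labels and libraries with unequal shares, whose part was not tested.

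Levels were compared between labels across all genes with at least 10 CPM in either label. A gene was called when its level, as log2(CPM + 1), differed at least 2-fold in the same direction in each of the 4 libraries. Between NK cells and T cell EFF cells, 5 of the 9 genes were called higher in NK cells, where 2.33% of 7999 genes were called higher. No member was called lower, against 3.2% of all genes. The pooled ratio was 22.2-fold for Gzma, 11.5-fold for Gzmc, 11.1-fold for Gzmg, 4.75-fold for Gzmd and 2.64-fold for Gzme. In the separate libraries the log2 difference of Gzma ran from 4.31 to 4.86, that of Gzmc from 3.25 to 4.77 and that of Gzmg from 2.45 to 4.94. Gzmb (0.64 to 1.40), Gzmf (0.91 to 1.53) and Prf1 (0.88 to 1.71) were higher in NK cells in all 4 libraries but below 2-fold in at least 1, and Gzmk was lower in all 4 (-1.59 to -0.29). Without library M1, Gzmf was called as well, which made 6 (2.51% of all genes were called higher there), and Gzme was no longer called without cells of high mitochondrial share (2.31%). With the log2 difference of each gene averaged over the 4 libraries, the median was 1.46 over the 9 genes and -0.07 over all genes tested. With cells picked by transcripts in place of labels, the pooled ratios of the 5 called genes were smaller. NK and CD8 T cells then held Gzma at 7068 and 1439 CPM and Gzmc at 3425 and 724.5 CPM. Gzmd was at 1508 and 499.7 CPM, and Gzme at 598.4 and 306.3 CPM. Gzmg was at 456.6 and 68.7 CPM. Both picks held cells of other labels. Stroma made up 12.2% of the NK pick, and ILC 9.93%, Myeloid 6.74% and Stroma 5.84% of the CD8 T cell pick. The part of these cells in the smaller ratios was not tested. The Gzma ratio was larger against T cell EFF cells without Ncr1 or Klrb1c UMIs, which held 221 CPM.

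Gzma was 1.96-fold, Gzmk 1.76-fold and Prf1 1.41-fold higher in NK cells than in ILC, with no overlap of their libraries. The log2 difference of ILC from NK cells was -0.97 for Gzma (-1.08 to -0.75 over the libraries), -0.78 for Gzmk (-0.89 to -0.47) and -0.49 for Prf1 (-0.58 to -0.34). Gzmb (-0.48 to -0.08) and Gzme (-0.40 to -0.06) were also lower in ILC in all 4 libraries. None of the 9 was called higher in ILC, where 1.97% of 7761 genes were, and none lower, where 0.0515% were, so that the absence of calls is no result about the members. Gzmc was higher in ILC in all 4 libraries (0.05 to 0.28), and Gzmd, Gzmf and Gzmg had no common direction. The ILC label mixed 2138 cells with a CD3 chain UMI and 2490 without. Gzmc was at 4104 CPM in the former and 7426 CPM in the latter, Gzma at 6444 and 9748 CPM and Gzmb at 3209 and 4633 CPM. The other members except Gzmk (15.0 against 14.3 CPM) were also lower in cells with a CD3 chain UMI. NK cells were not split in this way.

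T cell MEM against T cell EFF gave no called member either, with 0.522% of 8043 genes called higher and 3.2% called lower. In all 4 libraries T cell MEM cells had less Gzmg, with a log2 difference of -1.93 (-2.79 to -0.13), Gzmf (-1.43, -2.26 to -0.60), Prf1 (-0.87) and Gzmb (-0.61). They had more Gzmk (0.57, 0.33 to 0.64) and more Gzma (0.54, 0.26 to 1.07) in all 4, and Gzmc, Gzmd and Gzme had no common direction. Without library M1, 2 members, Gzmf and Gzmg, were called lower, where 3.23% of 8007 genes were.

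In NKT cells, 6 of the 9 genes were called lower than in T cell EFF cells, where 2.2% of 8107 genes were called lower. None was called higher, against 2.26% of all genes. The log2 differences were -2.92 for Gzme, -2.74 for Gzmd, -2.57 for Prf1, -2.54 for Gzmg, -2.37 for Gzmf and -2.32 for Gzmk. Gzmk was at 7.79 CPM in NKT cells and 42.8 CPM in T cell EFF cells. It passed the filter of 10 CPM only through the label where it is high, so no weight is put on its call. Its NKT level rested on 5, 5, 8 and 14 UMIs in M1, M2, M5 and M6. That of Gzmg rested on 2, 6, 14 and 23 UMIs. Gzmb (-1.61 to -0.24) and Gzma (-2.001 to -0.08) were lower in all 4 libraries without passing 2-fold in each, and Gzmc had no common direction (-1.82 to 1.11). The level of Gzmb was 1162 CPM in NKT cells and 2437 CPM in T cell EFF cells.

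Other genes of the killing machinery were looked at by the same rule. Of 17 granule genes (Gzmm, Gzmn, Srgn, Ctsc, Ctsw, Nkg7, Cst7, Lamp1, Rab27a, Unc13d, Stx11, Stxbp2, Vamp8, Serpinb9, Serpinb6b, Fasl and Tnfsf10), 15 passed the level filter between NK cells and T cell EFF cells. None was called higher (2.33% of all genes were), and 1, the death ligand Tnfsf10, was called lower in NK cells (7.36 against 33.4 CPM, where 3.2% of all genes were called). Tnfsf10 passed the level filter only through T cell EFF cells, where it is high, so no weight is put on its call. Nkg7, a granule membrane protein, was at 1977 CPM in NK cells and 1889 CPM in T cell EFF cells, and Serpinb9, which blocks granzyme B, was at 705 and 443 CPM. Of 8 transcription factors that act on these genes (Tbx21, Eomes, Prdm1, Id2, Runx3, Zeb2, Tcf7 and Tox), Eomes was called higher in NK cells (301 against 32.2 CPM) and Tox lower (12.3 against 89.9 CPM). Between NKT and T cell EFF cells, Cst7, an inhibitor of the proteases that activate granzymes, was the only granule gene called (79.2 against 231 CPM, lower in NKT). No transcription factor was called there, and of all genes 2.2% were called lower and 2.26% higher. Between T cell MEM and T cell EFF cells only Tcf7 was called among both lists (67.6 against 14.8 CPM), where 0.522% of all genes were called higher and 3.2% lower. Between ILC and NK cells none was, where 1.97% of all genes were called higher and 0.0515% lower.

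Some T cells also held NK transcripts, and the levels of Gzma, Gzmc and Gzmg moved with them. Among T cell EFF cells, 342 had a UMI of Ncr1 or Klrb1c and 3291 had none. Gzma was at 2397 CPM in the former (2007 to 2783 over the libraries) and 221 CPM in the latter (73.5 to 339.5). Gzmc was at 1031 against 253 CPM and Gzmg at 183 against 37.7 CPM, whose library ranges overlapped. Gzmb (2365 against 2456 CPM) and Prf1 (777 against 794 CPM) were nearly equal in both, and Gzmk was at 28.8 against 46.5 CPM. Without the cells holding NK transcripts, Gzma was in 17.9% of T cell EFF cells (16.6% to 19.3%), and its level of 221 CPM stood against 90.3 CPM in B cells and 42.1 CPM in Stroma, with library ranges of T cell EFF and B cells that overlapped. Gzmb was in 74.5% and any of Gzmc to Gzmg in 35.6%. The summed level of the 4 NK markers was 42.4 to 68.1 CPM in T cell EFF cells and 825 to 939 CPM in NK cells. In T cell MEM cells the same split gave 2544 CPM of Gzma in 135 cells and 422.5 CPM in 1044 cells. Whether such cells hold a pair of captured cells, free RNA or both sets of transcripts of 1 cell was not tested.

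**Figure D5:**
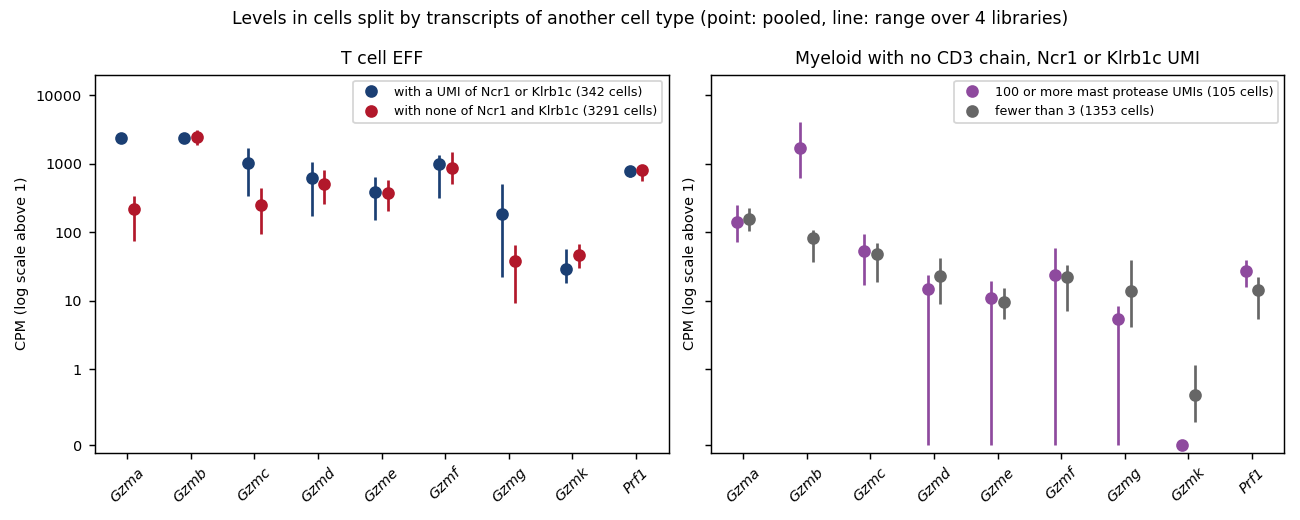
Points give pooled levels in CPM (log scale above 1) and lines the range over the 4 libraries, for T cell EFF cells with and without a UMI of Ncr1 or Klrb1c at the left and for Myeloid cells with many or few mast cell protease UMIs at the right. Gzma separates at the left (2397 against 221 CPM) while Gzmb and Prf1 do not, and Gzmb separates at the right (1678 against 83.4 CPM, and 969 against 81.9 CPM without library M5).

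Among Myeloid cells without lymphocyte transcripts, the Gzmb level was highest in cells with mast cell proteases. Myeloid cells without a UMI of a CD3 chain, Ncr1 or Klrb1c were divided by their UMIs of the mast cell protease genes Cpa3, Mcpt2, Mcpt4, Cma1 and Tpsb2, at limits chosen after the values had been seen. The 105 cells with 100 or more such UMIs had Gzmb at 1678 CPM, with 1183, 619, 4052 and 1030 CPM in M1, M2, M5 and M6. The 1353 cells with fewer than 3 had 83.4 CPM (95.9, 36.9, 88.5 and 108 CPM), so that the libraries did not overlap. Without thinning, 66.7% of the 105 cells and 24.6% of the 1353 cells held a Gzmb UMI. The 34 cells between these limits had Gzmb at 593 CPM and Gzma at 937 CPM. In UMIs the 105 cells held 920 of Gzmb and the 1353 cells 883, of 25583 in the whole Myeloid label. Without library M5, 409 of the 920 UMIs remained, and the levels were 969 and 81.9 CPM. A single cell held 218 of the 920 UMIs, and without it the level was 1318 CPM. Gzma (142 against 153.5 CPM), Gzmc (52.9 against 47.9 CPM) and Prf1 (27.4 against 14.2 CPM) differed by far less.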

How the data were processed

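Cells of CT26 tumors, enriched for CD45+ cells, were profiled by droplet 3′ RNA-seq. The deposited table holds raw UMI counts with genes in rows and cells in columns, made by the authors with Cell Ranger 3.0.2 on mm10 (GRCm38), as the submitters' processing notes and the study's methods state. A second deposited table gives each cell's library and a label, which the authors took from the ImmGen profile with the highest correlation. Doublet removal and correction for free RNA are not given in the sources used here. Cells had 1220 to 213981 UMIs (median 16117).

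Counts were summed per label and library and divided by the summed UMIs (CPM, with a pseudocount of 1 on the log2 scale and a minimum of 10 CPM in either label). For shares, 2000 UMIs were drawn from each cell without replacement. With libraries tied to no sample, no test of a difference was run (Dixon's outlier test was applied to sets of 4 libraries), and a call was a ratio of at least 2-fold in every library. The directions of the state list were counted beside all genes found in at least 1% of either class. The calling, counting and thinning steps were tested on simulated data. Doublets were not removed in the main values. As an alternative, 606 cells with a scrublet score above 0.25 were left out, since the automatic limit failed in M5. Other alternatives were leaving out 3787 cells above 10% mitochondrial UMIs, 1000 or 4000 UMIs or no thinning, other pseudocounts, no level filter, the mean of each cell's CPM, cells picked by transcripts, and leaving out each library. The split by Ncr1 and Klrb1c and the mast protease values without a library or a cell were added after seeing the data. The members and gene lists were chosen with earlier results of these data known. The genes named were the 9 members, the granule, transcription factor and marker lists, those of the state list with a common direction (not all of them are reported here), and for each member the 3 genes most alike over labels, from those with at least 50 CPM. Promoters came from RefSeq (GRCm38.p6), where all 9 genes matched, and transcripts from GENCODE M21. Scripts used Python 3.11.15 with numpy 2.4.6, scipy 1.17.1, pandas 2.3.3, scanpy 1.11.5, biopython 1.88 and matplotlib 3.10.9.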

Additional observations from a re-analysis of the deposited data

Results flagged for a closer look

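The level of Gzmb in NK cells of library M2 was 3797 CPM, against 5149, 5178 and 5391 CPM in the other 3 libraries. The gap of M2 to the nearest library was 0.848 of the whole range of the 4, above the critical value of Dixon's test for 4 values at the 95% level. It was the only 1 of 45 sets of 4 libraries (each of the 9 genes in 5 labels) with such a gap. Chance gives about 1 in 20, so 1 of 45 is no more than chance gives. The libraries match no sample label and were given no treatment, so this only describes how far M2 lay from the others. The share of NK cells with Gzmb at 2000 UMIs was 88.3% in M2 and 89.0% to 94.1% in the other libraries.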

How the results depend on the processing

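Shares depended on the number of UMIs per cell. With 1000 UMIs, 4000 UMIs and no thinning, the share of T cell EFF cells with Gzmb (75.5%) became 66.2%, 83.8% and 89.3%, with Gzmk (7.98%) 4.51%, 13.4% and 25.9%, and with any of Gzmc to Gzmg (37.0%) 28.1%, 47.1% and 65.7%. The share of NK cells with Gzma (97.9%) became 96.1%, 99.03% and 98.5%, and it was 98.3% without cells above 10% mitochondrial UMIs. Gzmd among T cell EFF cells with Gzmc (34.1%) was 43.1% without thinning. Cells picked by transcripts in place of labels gave 72.4% for Gzmb in CD8 T cells and 79.8% for Gzma in NK cells. Of these picked NK cells 46.5% carry the NK cells label, 37.3% ILC and 12.2% Stroma. Of the picked CD8 T cells 59.7% carry the T cell EFF label, 13.2% T cell MEM and 9.93% ILC. Leaving out each library gave 74.2% to 78.5% for Gzmb, 97.7% to 98.1% for Gzma, 6.94% to 8.75% for Gzmk, 31.5% to 40.5% for any of the 5 and 30.9% to 36.1% for Gzmd with Gzmc.

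The 5 members called between NK cells and T cell EFF cells (2.33% of all genes) were 4 with the mean of each cell's CPM (3.32%) and 4 without cells of high mitochondrial share (2.31%), Gzme being lost in both, and 6 without M1 (2.51%), Gzmf being added. Between T cell MEM and T cell EFF cells, leaving out each library gave 0 to 2, the 2 being Gzmf and Gzmg, lower without M1 (3.23% of all genes). Between NKT and T cell EFF cells the 6 (2.2% of all genes) were 5 with a pseudocount of 10 CPM (0.691%), with the mean of each cell's CPM (1.49%) and without T cells holding NK transcripts (2.18%), Gzmg being lost each time. No member was called between ILC and NK cells under any alternative run. The level of each member in its highest label became 0.456 (Gzmg) to 1.23 (Gzmk) times as high when each cell's CPM was averaged, and 0.677 (Gzmg, without M5) to 1.14 times as high when a library was left out. Pairing by the replicate numbers of the samples was not possible because the libraries match no sample label. Labels were paired by library, as the differences between them were taken within each library. Library number and cell depth limit the precision, and the causes of these shifts were not tested.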

Other observations

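CD4 T cells picked by their transcripts also held Gzmb. Of the cells with Foxp3, Cd4 and a CD3 chain and without CD8 transcripts (533 cells, which any label could contain), Gzmb was detected at 2000 UMIs in 50.6% (46.2% to 54.9%), with 65.4%, 61.1%, 49.1% and 48.8% in M1, M2, M5 and M6. Other CD4 T cells (621 cells) had Gzmb in 33.7% (30.0% to 37.6%), with 34.6%, 28.6%, 40.5% and 30.0%. The share with Gzmb was higher in the regulatory T cell pick than in the other CD4 T cells in each of the 4 libraries. By label, Foxp3 was highest in T cells (239 CPM) and NKT (196 CPM). The pooled Gzmb level of these labels was 133 and 1162 CPM. The Gzmb level was 1040, 770.4, 1059 and 1457 CPM in the regulatory T cell pick in M1, M2, M5 and M6. In the other CD4 T cells it was 1104, 424, 976.9 and 853.2 CPM, so that the level was not higher in M1. Prf1 was detected in 15.8% and 14.6% of these picks, against 55.4% of 5206 CD8 T cells picked in the same way, whose share with Gzmb was 72.4%. Gzma was in 31.6% of the regulatory T cell pick and 32.1% of the other CD4 T cells. The level of Gzma in the regulatory T cell pick was 538.5, 452.6, 2309 and 3707 CPM in M1, M2, M5 and M6, against 1482, 869.2, 1681 and 1658 CPM in the CD8 T cells, so that it was lower in M1 and M2 and higher in M5 and M6. Libraries M1 and M2 gave 28 and 36 of the 533 cells. Some of the picked cells carry labels of other cell types. ILC made up 16.5% and Myeloid 10.9% of the regulatory T cell pick. Among the other CD4 T cells, ILC made up 15.0%, Myeloid 11.1% and Stroma 7.1%. In M5 and M6, Gzma was at 8135 and 7800 CPM in ILC. The T cells label held 95.7 and 83.6 CPM there, and the NKT label 260 and 418 CPM. The part of cells of other labels and of doublets in these picks was not tested.

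Over the 12 labels, pooled over libraries, the gene outside the 9 whose log2(CPM + 1) followed each member most closely was Eomes for Gzma (Pearson r = 0.978), Ctla2a for Gzmb (0.984), Klri2 for Gzmc (0.969), Atp5e for Gzmd (0.953) and Gzmf (0.966), Ppp1ca for Gzme (0.951), Car2 for Gzmg (0.894), Asnsd1 for Gzmk (0.938) and Fcrl6 for Prf1 (0.968). Among the members the closest pair was Gzmd and Gzme (0.988) and the least close was Gzmg and Gzmk (0.357). The 12 points share libraries and differ in depth and free RNA, so these values only describe the labels.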
